A study of Mus musculus with 8 samples.

Results

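Cluster 2 is 1 of 7 populations that were sorted from mouse bone marrow by surface antibodies, and its RNA-seq library was set against those of clusters 1, 3, 4, 5, 6 and 7. Each population had 1 library (n = 1), so no difference below has a replicate check and none was tested. Intervals are 95% intervals of counting error alone, and reads without molecular identifiers are not independent molecules. Of 49315 genes in the count table, 49312 remained after 3 loci were dropped, and the 13095 of these with 50 or more counts in cluster 2 are the genes described. The labels give all 7 libraries as bone marrow derived stromal cells of wild type C57BL/6J mice at 6 weeks after birth. The study's sort took cells without CD31, CD45 and Ter119, which mark endothelial and blood cells. The single-cell fraction in which the study found the clusters was also positive for Sca-1 and PDGFR-α. Cluster 2 was the fraction that was also negative for Ly-6C, CD39 and CD24. Cluster 1 was CD24-negative and positive for Sca-1 and CD39, and cluster 3 was positive for Ly-6C and CD24. Cluster 4 was Ly-6C-negative, CD24-negative and CD54-positive, and cluster 5 was CD54-positive without CD24, Ly-6C and CD121b. Cluster 6 was CD24-positive without Sca-1 and CD39, and cluster 7 was CD54-negative and Sca-1-positive. These gates define the groups by 1 or a few antigens each, and how many animals were pooled for a library is not given in the sources used here. An eighth library, labelled as input cells of bone marrow, was left out of every comparison.

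After the 3 loci were dropped the cluster 2 library held 22719265 counts, and the others held 23744622 (cluster 1), 26674531 (cluster 3), 32220730 (cluster 4), 8364075 (cluster 5), 31223321 (cluster 6) and 33147014 (cluster 7). The 3 loci were the Rn18s-rs5 locus, Lars2 and mmu-mir-689-2, and together they had taken 10.4% of all counts in cluster 2 (Wilson interval 10.37% to 10.39%). Their share was 34.8% in cluster 5 and 0.274% to 1.91% in the other 5 sorted libraries, so clusters 2 and 5 stood apart. Levels are given in RPKM, counts scaled to the exon length that the table gives for the gene and the remaining total of the library, and differences as log2(RPKM + 1) in cluster 2 minus the median, the highest or the lowest of the other 6 libraries. This scale understates the differences of genes near or below an RPKM of 1. In sorted bulk samples, fewer cells of a type and less RNA per cell cannot be told apart.

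Genes of cartilage stood furthest above the median of the other clusters in cluster 2. Chondrocytes of the growth plate surround themselves with a matrix of type II, IX and XI collagens and the proteoglycan aggrecan under the control of SOX9 with SOX5 and SOX6. As they mature they become prehypertrophic, when they make Indian hedgehog and the parathyroid hormone receptor, and then hypertrophic, when they make type X collagen. RUNX2 acts both in this maturation and in osteoblasts, the cells that make bone, where it works together with SP7.

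Promoters are shown for Col10a1, Matn1 and Ucma, 3 of the cartilage genes that hold a match to a searched motif, and for Runx2, whose protein binds the RUNX motif. Those of Acan, Cnmd, Col9a1, Col9a2, Col11a1, Hapln1, Ihh, Matn3, Matn4, Mia1 and Sox5 held no match in the same window. Chad, Epyc, Pth1r and Sox6 held a match before at least 1 of their starts and are not shown. They are the 150 bases before the RefSeq transcription start in GRCm38.p6, written 5′ to 3′ on the strand of the gene. Capitals mark a TATA box (TATAAA, gene strand) or a RUNX motif (TGTGGT, or its reverse complement ACCACA). The motifs were chosen after the data had been seen.
Col10a1, chr10:34389831-34389980, plus strand, TATA box: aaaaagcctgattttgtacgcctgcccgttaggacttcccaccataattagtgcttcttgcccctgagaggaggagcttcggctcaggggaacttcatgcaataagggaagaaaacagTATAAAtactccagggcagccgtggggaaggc
Matn1, chr4:130944235-130944384, plus strand, RUNX motif: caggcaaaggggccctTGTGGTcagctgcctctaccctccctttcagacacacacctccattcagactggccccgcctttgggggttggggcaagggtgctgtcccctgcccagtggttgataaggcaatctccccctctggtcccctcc
Ucma, chr2:4975972-4976121, plus strand, RUNX motif: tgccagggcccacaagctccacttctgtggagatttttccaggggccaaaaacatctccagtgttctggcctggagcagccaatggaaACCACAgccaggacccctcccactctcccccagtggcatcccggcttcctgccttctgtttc
Runx2, chr17:44814628-44814777, minus strand, RUNX motif: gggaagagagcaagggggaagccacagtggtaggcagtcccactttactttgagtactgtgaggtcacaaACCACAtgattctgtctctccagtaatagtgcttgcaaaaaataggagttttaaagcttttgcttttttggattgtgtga

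Over the 250 bases before the start, 14.0% of all 32851 mouse promoters of the RefSeq table held the RUNX motif on either strand, 7.59% held TATAAA on the gene strand, and 25.2% held a SOX motif (ACAAAG or ACAATG, either strand). Of the 27 promoters found for 17 of the 23 chondrocyte genes described below, 6 of them starts of Sox6, 5 (18.5%) held the RUNX motif, 3 (11.1%) held TATAAA and 10 (37.0%) held a SOX motif. Among the 117 promoters of genes over 2-fold above every other cluster the shares were 15.4%, 5.98% and 13.7%. A motif match is a description of the letters and not of a bound site. Calml3 and, of the chondrocyte genes, Col2a1, Col9a3, Comp, Prg4, Snorc and Sox9 had no entry.

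Genes were kept by their counts in cluster 2 itself, which admits genes that are high there and leaves out genes that are low there, so the numbers of higher and lower genes are not set against each other. Of the 13095 genes, 153 (1.17%) were over 2-fold above the highest of the other 6 libraries and 4 (0.0305%) were over 2-fold below the lowest. Against the median of the other 6, 985 genes (7.52%) were over 2-fold higher and 427 (3.26%) over 2-fold lower. Cluster 2 was the highest of the 7 libraries for 3583 genes (27.4%) and the lowest for 1265 (9.66%), and the median difference of all 13095 genes from the median of the other clusters was 0.09. For 73 of the 153 genes the next highest library was cluster 6, followed by cluster 5 with 29, cluster 1 with 22, cluster 4 with 16 and cluster 3 with 13. With scaling factors that set aside the most abundant and most different genes, the first count depended on the scaling. It was 65 with TMM factors and 70 with DESeq2 size factors, and 65 and 69 of these were among the 153. The count below the lowest was 10 and 11 under these factors and 77 without cluster 6. With 50 counts asked of the highest of the 7 libraries in place of cluster 2, 153 and 4 genes were past the highest and the lowest and 995 and 476 past the median. At the edge of the count, Gar1 lay just inside with 1.0023, and Ndufc1 and Tnfrsf10b just outside with 0.9998 and 0.9993.

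**Figure D1:**
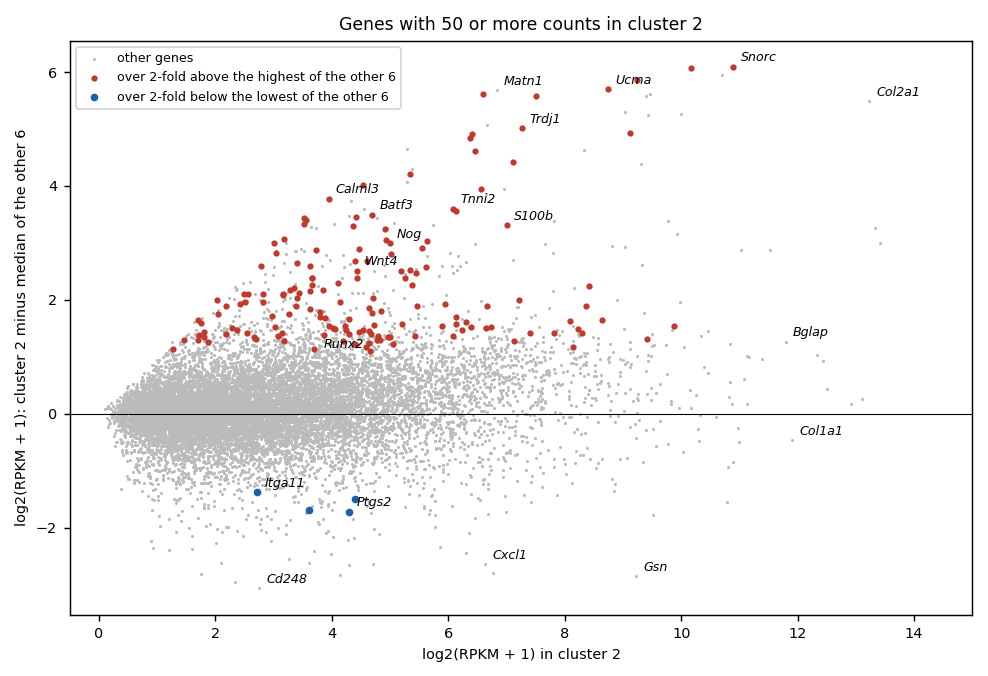
Each point is 1 of 13095 genes with 50 or more counts in cluster 2, with log2(RPKM + 1) in cluster 2 on the x axis and its difference from the median of the other 6 clusters on the y axis. Red points are the 153 genes over 2-fold above every other cluster and blue points the 4 over 2-fold below every other cluster; the cartilage genes, among them Col2a1, form the upper right edge.

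Calml3, Trdj1 and Runx2 are the genes that had been given as marks of cluster 2. Calml3 (chr13:3802893-3804318) encodes a calmodulin-like protein known from epithelia. It had 467 counts and an RPKM of 14.4 in cluster 2, against 0.0886, 0, 0.979, 0.168, 1.71 and 0.0423 in clusters 1, 3, 4, 5, 6 and 7 in turn. The level in cluster 2 was 8.44 times that in cluster 6, the next highest (exact binomial interval 6.62 to 10.9), and Calml3 lay 3.77 above the median and 2.51 above the highest of the others on the log2 scale. Trdj1 (chr14:54123138-54123188), a joining segment of the T cell receptor delta locus that is 51 bases long, had 177 counts in cluster 2. The other libraries held 4 (cluster 1), 1 (cluster 3), 7 (cluster 4), 6 (cluster 5), 20 (cluster 6) and 0 (cluster 7) counts of Trdj1. In RPKM this was 153 in cluster 2 and at most 14.1, in cluster 5, elsewhere, a ratio of 10.9 (4.89 to 29.99). On the log2(RPKM + 1) scale Trdj1 was the gene furthest above all other clusters, by 3.35. Division by a length of 51 bases gives it a high RPKM, so the added 1 lowers its difference less than that of Calml3. The intervals of the ratios of Trdj1 and Calml3 overlap.

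The variable segment Trdv4 had 10 counts in cluster 2 and 1 to 21 in the others. Trdv5 had 11 counts in cluster 2, 1 each in clusters 1 and 6 and 0 in the other 4, so it too was highest in cluster 2, though at 11.5 times cluster 1 with an interval of 1.67 to 495. Of the 18 T cell genes that were matched, 6 had 50 or more counts in cluster 2. None of the 6 was over 2-fold above or below the median on the log2(RPKM + 1) scale, which understates differences at such low levels. The CD3 chain genes Cd3d, Cd3e and Cd3g had 53, 8 and 32 counts and the alpha chain constant gene Trac had 45. The most abundant T cell gene, Tcf7, a transcription factor gene that also stands in the osteogenic list, had 350 counts, an RPKM of 5.87, and was at 12.7 in cluster 6 and 9.17 in cluster 3. A part of T cells in the Trdj1 counts was not tested.

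Runx2 (chr17:44495987-44814797) was highest in cluster 2 by a smaller margin. Its RPKM was 12.3 in cluster 2, against 2.09, 4.44, 5.78, 6.79, 8.35 and 5.04 in clusters 1, 3, 4, 5, 6 and 7 in turn. The 2479 counts in cluster 2 gave a level 1.48 times that of cluster 6 (1.40 to 1.56), or 1.06 above the median and 0.51 above the highest on the log2 scale. The margin over cluster 6 was 0.04 with TMM factors and 0.08 with DESeq2 size factors, so the order held under all 3 scalings while the size of the margin rests on the scaling.

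The chondrocyte list of 23 genes was the one furthest above the median. All 23 had 50 or more counts in cluster 2, 19 were over 2-fold above the median of the other clusters and none was over 2-fold below (in counts of list members, above and below mean over 2-fold from the median throughout, and of all genes 7.52% were above and 3.26% below), and their median difference was 4.64 against 0.09 over all genes. Cluster 2 was the highest of 7 for 15 of the 23, and with either TMM or DESeq2 factors for 7 (Snorc, Ucma, Col9a2, Col10a1, Ihh, Sox5 and Sox6), a count added after the data had been seen. The other 8 of the 15 (Col9a1, Col9a3, Col11a1, Matn1, Matn3, Hapln1, Pth1r and Sox9) were below cluster 6 under both. Summed over the list, the RPKM was 23820 in cluster 2, against 1428, 4914, 10650, 2104, 23820 and 3070 in clusters 1, 3, 4, 5, 6 and 7 in turn. High levels of these genes were thus shared by clusters 2 and 6, with cluster 4 between them and the rest.

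Type II collagen, Col2a1 (chr15:97975602-98004695), the main fibrillar collagen of cartilage, was the most abundant gene of cluster 2, with 1309958 counts or 5.77% of the library. Its RPKM was 9608 in cluster 2, against 195, 136, 3077, 233, 10690 and 185 in clusters 1, 3, 4, 5, 6 and 7 in turn. It lay 5.49 above the median and 0.15 below cluster 6. Type IX collagen, which decorates the type II fibrils, was highest in cluster 2 in all 3 chains when scaled to the library totals, but with TMM or DESeq2 factors Col9a1 and Col9a3 were highest in cluster 6. Col9a1 had an RPKM of 703 in cluster 2, 643 in cluster 6, 103 in cluster 4 and 2.71 to 13.5 in the other 4 clusters. Col9a2 had 1147 in cluster 2, 549 in cluster 6, 142 in cluster 4 and 4.32 to 16 elsewhere, and so was over 2-fold above every other cluster (log2 difference 1.06). For Col9a3 the levels were 1660, 1297, 247 and 6.15 to 26.6 in the same order. Col11a1, a chain of type XI collagen, was at 521 in cluster 2 and 451 in cluster 6.

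Aggrecan, Acan, the large proteoglycan that holds water in cartilage, was at an RPKM of 320.5 in cluster 2, 354 in cluster 6, 50.2 in cluster 4 and 8.70 to 12.9 in the others. The link protein Hapln1, which ties aggrecan to hyaluronan, was at 525 in cluster 2 and 396 in cluster 6. Matn1 (chr4:130944385-130955475), whose promoter is shown above, encodes the cartilage matrix protein matrilin-1. It was at 113 in cluster 2 and 91.8 in cluster 6, 3.78 in cluster 4 and 0.262 to 1.73 in the other 4, a difference from the median of 5.69. Matn3 was nearly level between clusters 2 and 6, with 691 and 687. Cnmd (Lect1 in the table), the cartilage protein chondromodulin, was at 1026 in cluster 2 and higher in cluster 6, with 1180. Comp, found in cartilage and tendon, was only 1.01 above the median, and Prg4, the lubricin of the joint surface, was 0.79 below it, with an RPKM of 252 in cluster 2 and 2523 in cluster 3.

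Snorc, Mia1 and Ucma, all genes of cartilage, were further above cluster 6 than the collagens were. Their exon lengths of 722, 994 and 884 bases fall in the range where cluster 2 as a whole was higher and cluster 6 lower, as given below with gene length, and the part of length in this difference was not tested. Snorc (3110079O15Rik in the table; chr1:87470271-87475482), a transmembrane proteoglycan of chondrocytes, had an RPKM of 1903 in cluster 2, against 18.3, 18.3, 190, 39.2, 476 and 10.2 in clusters 1, 3, 4, 5, 6 and 7 in turn. Mia1 (chr7:27179742-27181157), also called cartilage-derived retinoic acid-sensitive protein, was at 603 in cluster 2, against 5.68, 3.28, 77.3, 13.9, 154 and 6.22 in clusters 1, 3, 4, 5, 6 and 7 in turn. Ucma (chr2:4976122-4985748), a matrix protein of the upper growth plate, was at 429 in cluster 2, against 4.19, 4.92, 88.0, 10.01, 115 and 5.22 in clusters 1, 3, 4, 5, 6 and 7 in turn. All 3 were 3.72 to 3.99 times as high as in the next cluster, with counting intervals of 3.91 to 4.08 for Snorc, 3.803 to 4.064 for Mia1 and 3.57 to 3.88 for Ucma. All 3 had the same order, cluster 2 above cluster 6 above cluster 4 above the rest, and all 3 were over 2-fold above cluster 6 under both other scalings as well (1.37 to 1.52). S100b, a calcium-binding protein of chondrocytes and glia, was at 127 in cluster 2 and next highest in cluster 4 with 39.2. Fxyd2, a regulator of the sodium pump, was at 180 against 68.2 in cluster 6 and at most 6.01 elsewhere, and the cytokine gene Il17b was at 95.2 against 32.9 in cluster 6 and at most 1.79 elsewhere. Il17b, Fxyd2 and Mia1 were among the 10 genes furthest above the median, at 5.62, 5.57 and 5.86. With TMM factors the margin over the next cluster was 0.874 for Fxyd2, 0.998 for Il17b and 0.544 for Col9a2, all under 2-fold, and 1.37 for S100b.

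Of genes known from maturing chondrocytes, which were not a list of their own, Col10a1, Ihh and Pth1r were high in cluster 2, whereas Mmp13 was at 125 against 341.8 for the median and Spp1 was 0.03 below the median. Col10a1 (chr10:34389981-34397085), the type X collagen of hypertrophic cells, whose promoter is shown above, was at an RPKM of 670 in cluster 2, against 11.8, 4.40, 39.4, 10.01, 378 and 14.6 in clusters 1, 3, 4, 5, 6 and 7 in turn. It was 0.82 above the highest of the others. Indian hedgehog, Ihh, was at 19.0 in cluster 2, 12.4 in cluster 6 and 0.149 to 0.510 in the other 5, and the receptor for parathyroid hormone and its related peptide, Pth1r, was at 448, 357 and 22.3 to 65.6 in the same order. Among the transcription factors of the lineage, Sox9 was at 178 in cluster 2, 166 in cluster 6, 98.1 in cluster 4 and 45.1 to 55.8 in the others. Sox9 was therefore 1.73 above the median but only 0.10 above cluster 6. Its range over the 7 libraries was much narrower than those of the matrix genes Col2a1, Acan and Matn1. The matrix gene Matn4 also had a narrow range, from 9.57 in cluster 6 to 33.2 in cluster 4. Sox6 was at 5.59 and 0.97 above every other cluster, and Sox5 was at 5.70 and 0.99 above the median.

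**Figure D2:**
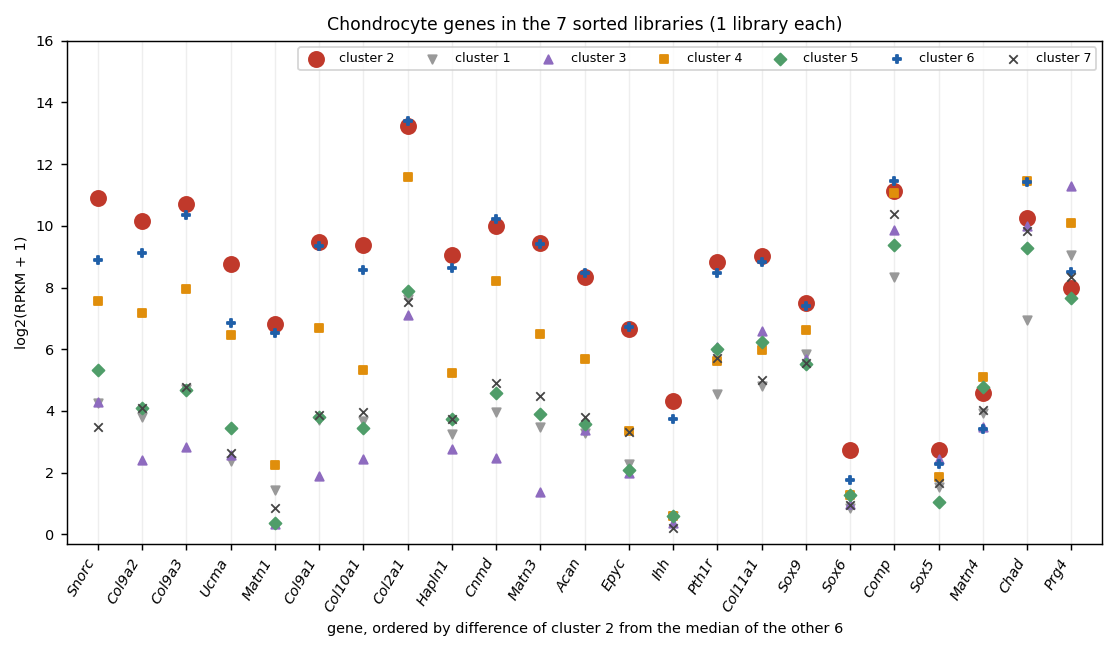
Levels of the 23 chondrocyte genes as log2(RPKM + 1), on the y axis, with 1 gene at each place of the x axis, ordered by the difference of cluster 2 from the median, and 1 marker for each of the 7 sorted libraries, cluster 2 as the large red circle. Clusters 2 and 6 lie close together at the top for most collagens and matrix genes, while for Snorc and Ucma cluster 2 lies well above cluster 6.

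The secreted signalling factors Wnt4, Rspo3, Nog and Il11 were over 2-fold above every other cluster. With TMM factors these margins were 0.88, 1.03, 0.77 and 0.74, so that Rspo3 alone of the 4 stayed over 2-fold. In the Hedgehog list, 10 genes had 50 or more counts, of which 2 (Ihh and Ptch1) were over 2-fold above the median and 1 (Boc) below, where 7.52% and 3.26% of all genes were. Ptch1, the hedgehog receptor that is also a target of the pathway, was at an RPKM of 8.71 in cluster 2, 4.22 in cluster 6, 2.65 in cluster 4 and 1.02 to 1.53 in the others. Of 26 Wnt genes, 3 were above, near the share of all genes, and 6 below, with a median difference of -0.08. Wnt4 was at 20.6 in cluster 2, against 0.994, 3.32, 3.03, 2.57, 7.50 and 1.11 in clusters 1, 3, 4, 5, 6 and 7 in turn, and the Wnt amplifier Rspo3 was at 11.6 against at most 4.44, in cluster 4. The secreted inhibitors Sfrp2 and Sfrp4 were among the 6 lower genes, at 51.7 and 102 or 1.44 and 1.76 below the median on the log2 scale.

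Of 30 genes of the BMP and TGF-beta pathways, 2 were over 2-fold above the median and 4 (Tgfbr2, Id4, Chrd and Fst) below. Noggin, Nog, a secreted antagonist of BMPs, was at an RPKM of 30.8 in cluster 2, 12.3 in cluster 6 and 2.17 to 3.08 in the other 5, and so 1.26 above every other cluster. The ligand Bmp7 was at 12.6 in cluster 2 and 11.5 in cluster 6, a pair that differed by 0.13 on the log2 scale. None of 9 Notch genes was over 2-fold away from the median in either direction. Of 18 genes of hypoxia and glycolysis, 6 were above (Pgk1, Pdk1, Bnip3, Tpi1, Pfkfb3 and Ddit4, by 1.12 to 1.32) and 1, Ndrg1, below, with a median difference of 0.50. Pgk1, a glycolytic enzyme, was at 119 in cluster 2 and 36.6 to 63.1 in the others. Of 23 genes of endoplasmic reticulum stress and secretion 2 were above (Plod2, a lysyl hydroxylase, and Lepre1, also called P3h1, a prolyl hydroxylase) and none below, a share close to the 7.52% of all genes.

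Among the genes furthest above every other cluster, several that are not known from cartilage had lower levels. Fam25c (chr14:34351881-34355433) was at an RPKM of 39.7 in cluster 2 and 7.99 in cluster 4, the next highest, a ratio of 4.97 (3.99 to 6.23). Batf3 (chr1:191097847-191108945), a transcription factor known from dendritic cells, was at 24.8 against 5.51 in cluster 6, a ratio of 4.50 (3.93 to 5.17). Npm3, Xlr3c, the hair keratin-associated gene Krtap17-1, the oocyte gene Ooep and Sln, which regulates the muscle calcium pump, were at RPKMs of 4.61 to 11.3 and 1.78 to 1.98 above every other cluster. For Sln the 138 counts gave a ratio to the next library of 7.26 with an interval of 3.43 to 18.4. Of the 153 genes, 143 had a gene symbol and 17 had fewer than 100 counts in cluster 2. Other genes among them, picked after their values were seen, were Col27a1 at 94.0 against 37.4 in cluster 6, Chst11, which sulphates chondroitin chains, at 48.9 against 18.4, and the transcription factor Foxa2 at 8.06 against 3.23. With TMM factors their margins were 0.80, 0.86 and 0.68, under 2-fold.

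Genes of bone cells did not follow the cartilage genes. Of 33 genes of bone matrix and mineralisation, all with 50 or more counts, 6 were over 2-fold above the median, 3 were below, and none was over 2-fold above the highest. Their median difference was -0.07, and its sign depended on which libraries were used, with -0.56 without cluster 1, -0.50 without cluster 4 or 7 and 0.16 without cluster 3 or 6. Summed over the list the RPKM was 25800 in cluster 2, against 14370, 50600, 18460, 33990, 64540 and 15500 in clusters 1, 3, 4, 5, 6 and 7 in turn, so that cluster 2 was in the middle. Type I collagen, Col1a1 (chr11:94936224-94953042), the main collagen of bone, was at 3833 in cluster 2, against 4056, 6919, 1982, 7678, 16180 and 2603 in clusters 1, 3, 4, 5, 6 and 7 in turn. The Col1a1 level of cluster 2 was thus below those of 4 other clusters. Bone sialoprotein, Ibsp, was at 798 in cluster 2, 3238 in cluster 6 and 200.5 to 742 in the others. Alkaline phosphatase, Alpl, was at 138 in cluster 2, 410 in cluster 6 and 27 to 99.7 in the others. Scaled to the library totals, cluster 2 was second to cluster 6 for both. For Ibsp this rests on the scaling: clusters 2 and 7 stood at 9.64 and 9.54 on the log2 scale, and TMM factors moved them by -0.14 and -0.01. Dmp1, a phosphoprotein of late osteoblasts and osteocytes, was at 39.97 in cluster 2 against 421 in cluster 6. Osteocalcin, Bglap, was at 3543 in cluster 2, against 259, 14250, 192, 7821, 11190 and 276 in clusters 1, 3, 4, 5, 6 and 7 in turn. The osteocalcin copies Bglap and Bglap2 share nearly identical sequence, so the split of reads between them is uncertain.

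The 6 higher genes of the bone list included some that cartilage also uses. Col11a2, a chain of the cartilage collagen type XI, was at an RPKM of 642 in cluster 2, against 18.8, 189, 80.4, 135, 1124 and 16.5 in clusters 1, 3, 4, 5, 6 and 7 in turn. Smpd3, a sphingomyelinase needed for mineralisation, was at 201 in cluster 2 and 318.5 in cluster 6, with 54.4 or less in the rest. The lower 3 were Serpinf1, Tnc and Mmp13, at 1.24, 1.18 and 1.45 below the median. Bglap and Ifitm5 (at 1.27 and 1.03 above the median) depended on which libraries set the median: both turned negative, at -1.14 and -0.76, when cluster 1, 4 or 7 was left out. With any of these 3 or cluster 3 left out, 5 to 8 bone matrix genes were below the median in place of 3.

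Among 12 osteogenic transcription factors with 50 or more counts, 2 (Runx2 and Sp7) were over 2-fold above the median and 2 (Msx1 and Osr2) below. Their median difference was 0.11, and it ranged from -0.07 without cluster 4 or 7 to 0.34 without cluster 5 or 6. Sp7, which acts downstream of RUNX2 in osteoblasts, was at an RPKM of 24.2 in cluster 2, against 2.32, 21.2, 3.42, 15.4, 39.2 and 8.44 in clusters 1, 3, 4, 5, 6 and 7 in turn. Dlx5 was at 8.30 in cluster 2 and 8.51 in cluster 6. With TMM or DESeq2 scaling neither Runx2 nor Sp7 was over 2-fold above the median. None of 12 osteocyte genes was over 2-fold away from the median in either direction.

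**Figure D3:**
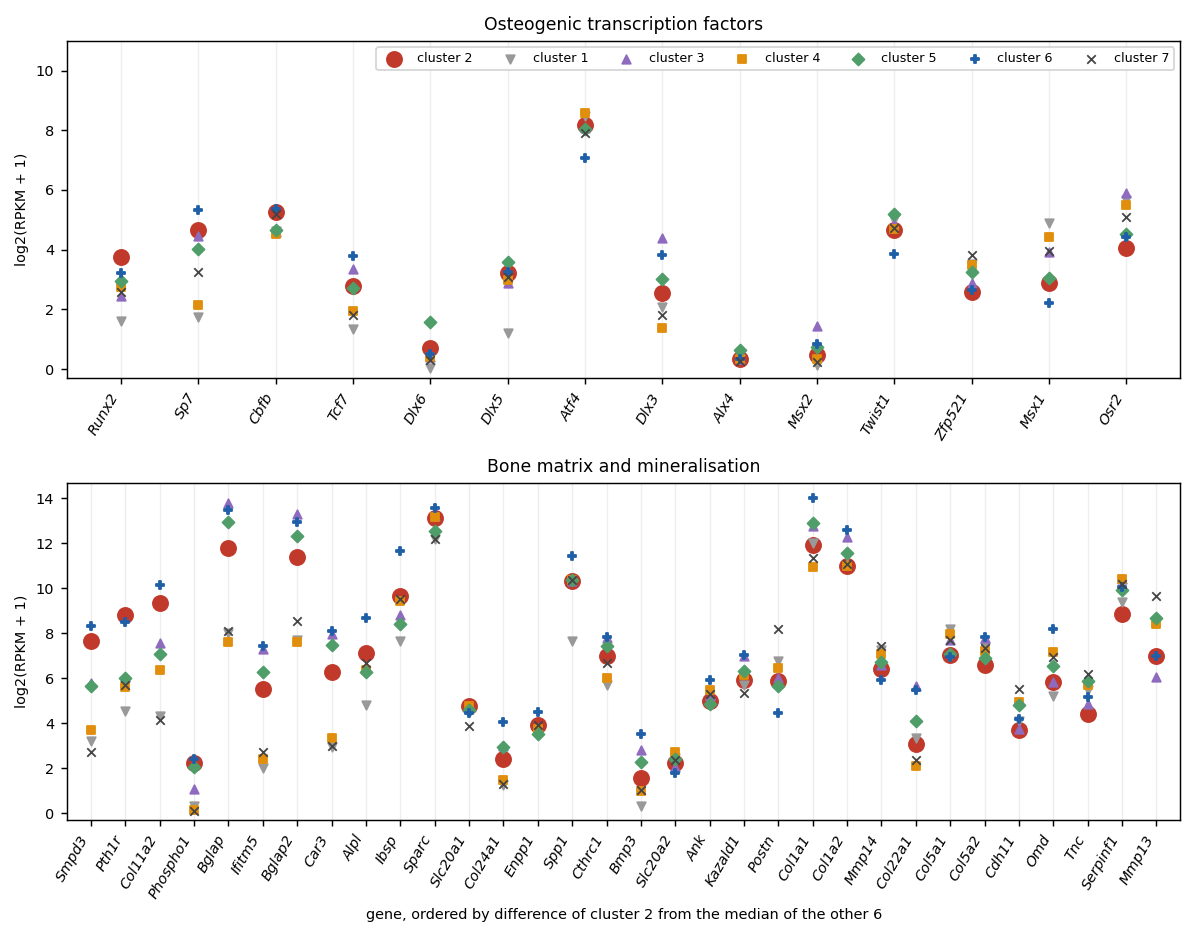
Levels of 14 of 15 osteogenic transcription factors (upper panel) and of 32 of 33 bone matrix and mineralisation genes (lower panel) as log2(RPKM + 1) on the y axis, with 1 gene at each place of the x axis and 1 marker for each of the 7 sorted libraries, cluster 2 as the large red circle. For Runx2 the red circle is the uppermost marker, whereas for Col1a1, Ibsp and Alpl cluster 6 lies above it.

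Among the lists of connective tissue, the genes of adventitial fibroblasts were lower in cluster 2 than in most clusters. Of 17 adventitial fibroblast genes, 12 were over 2-fold below the median (3.26% of all genes) and none above, with a median difference of -1.65, the lowest of the 32 lists. Their summed RPKM was 1237 in cluster 2, against 10420, 8072, 10160, 1946, 1092 and 7832 in clusters 1, 3, 4, 5, 6 and 7 in turn. Cd248, a surface protein of fibroblasts and pericytes, had the lowest difference of any named gene, -3.07. Its RPKM was 5.74 in cluster 2, against 112, 158, 69.2, 16.7, 1.60 and 44.6 in clusters 1, 3, 4, 5, 6 and 7 in turn. Gsn, which severs actin and is also secreted, was at 599 in cluster 2, 384 in cluster 6, 1111 in cluster 5 and 3181 to 7520 in the other 4. Scara5, Mfap5, Dpep1, Has1, Sparcl1, Dpt and C1s followed, at 2.63 to 2.96 below the median. Low levels of the adventitial genes were common to clusters 2 and 6, and cluster 5 was next to them in the summed RPKM. Among the 427 genes below the median cluster 6 was the lowest of the other 6 for 330 and cluster 2 the lowest of all 7 for 146. Of 19 tendon and fibrous tissue genes, 6 were below and none above, with a median difference of -0.78.

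The reticular niche list, genes of the stromal cells that hold blood stem cells, had 8 of 26 genes over 2-fold below the median and 1, Cspg4, above, with a median difference of -0.79. Cxcl12, the chemokine that retains blood stem cells, was at an RPKM of 13.1 in cluster 2, 5.12 in cluster 6, 11.9 in cluster 3 and 34.1 to 141 in the other 4. Pdgfra was at 4.88 and Lepr, the leptin receptor, at 2.88 in cluster 2, in both cases the lowest of the 7 libraries. Cspg4, the NG2 proteoglycan, was level between clusters 2 and 6 at 43.71 and 43.65, with 6.29 to 13.8 in the others.

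Inflammatory cytokines and chemokines were lower too, with 10 of 18 over 2-fold below the median, 1 above, and a median difference of -1.31. The neutrophil chemokine Cxcl1 was at an RPKM of 98.3 in cluster 2, 28.9 in cluster 6 and 353 to 1123 in the other 5. Il6, Csf1, Ccl2 and Ccl7 were 1.85 to 2.10 below the median. The exception was Il11, a cytokine of the interleukin 6 family, at 48.1 in cluster 2, against 4.25, 12, 12.7, 3.33, 19.8 and 3.37 in clusters 1, 3, 4, 5, 6 and 7 in turn. Il11 was thereby 1.24 above every other cluster. Of 15 interferon-stimulated genes, 3 were below and none above.

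The 4 genes over 2-fold below every other cluster (10 with TMM and 11 with DESeq2 factors) were Itga11, Ptgs2, Tcn2 and Snora28, of which Ptgs2 was also in the inflammatory list. Itga11 (chr9:62677826-62783982), a collagen-binding integrin chain, was at an RPKM of 5.58 in cluster 2, against 17.1, 14.8, 19.4, 13.9, 15.1 and 38.8 in clusters 1, 3, 4, 5, 6 and 7 in turn. Ptgs2 (chr1:150100031-150108227), the inducible cyclooxygenase, was at 18.7 in cluster 2 and 40.4, in cluster 3, to 113, in cluster 7, elsewhere. Tcn2, a vitamin B12 carrier, was at 11.3 and 24.5 to 61.5. The small nucleolar RNA Snora28 rested on 58 counts over 127 bases. Mmp2, which degrades matrix, was at 171 in cluster 2 and 0.77 below the next lowest library. Genes under 50 counts in cluster 2 and at 50 or more in each other cluster numbered 15, among them Gpr84, Angpt2 and Kit.

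**Figure D4:**
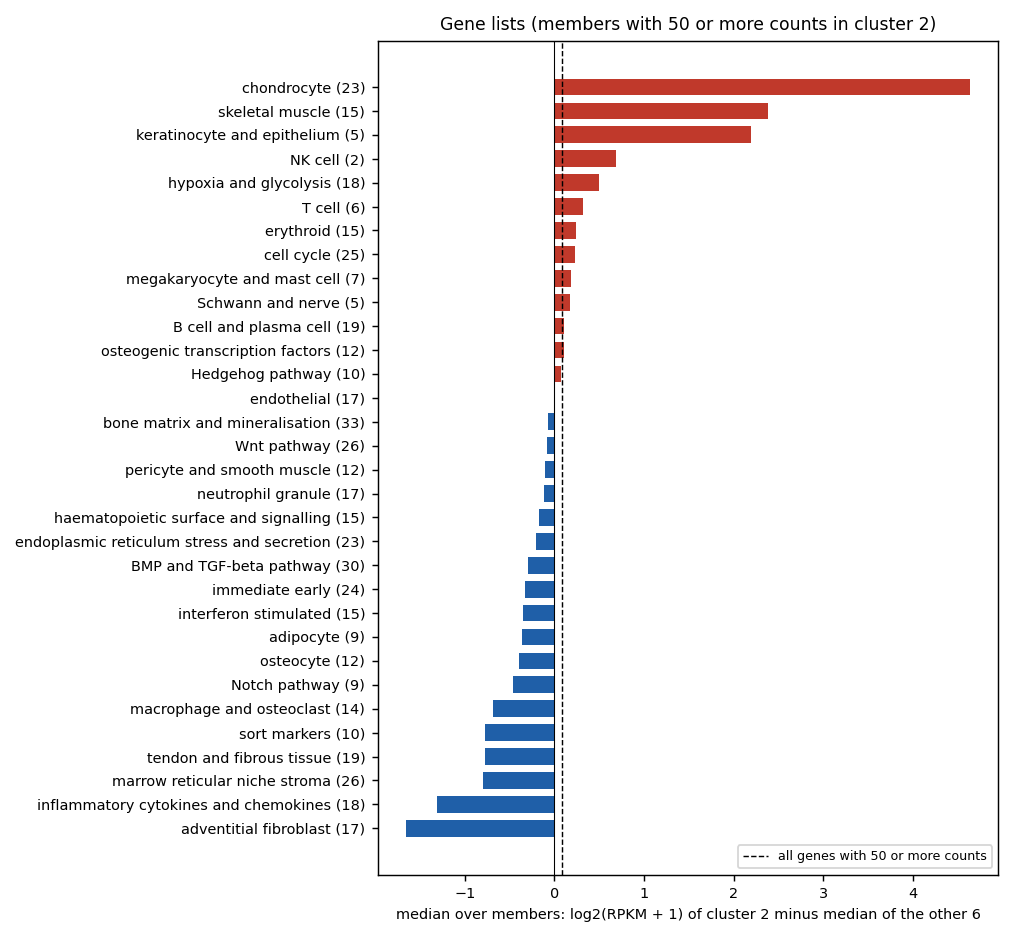
Bars give the median difference of each of 32 gene lists, as log2(RPKM + 1) in cluster 2 minus the median of the other 6 clusters, over members with 50 or more counts in cluster 2, and the dashed line gives the median of all 13095 genes (0.09). The chondrocyte list (4.64) lies far to one side, followed by skeletal muscle and keratinocyte genes, and the adventitial list (-1.65) is the lowest. The keratinocyte bar covers 5 of 18 members, 1 of them Calml3, which had been given as a mark of cluster 2.

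Markers of cell types that the sort should not hold moved with cluster 2 in 2 lists, the second of them, of keratinocytes and epithelium, over 5 members only. Of 15 skeletal muscle genes, 13 were over 2-fold above the median and 6 (Tnnt3, Tnni2, Tnnc2, Myl1, Mb and Mylpf, all of the contractile apparatus or oxygen store of fibres) over 2-fold above every other cluster, with a median difference of 2.38. With TMM factors Tnnt3, Tnni2 and Tnnc2 stayed over 2-fold above every other cluster. Their summed RPKM was 318 in cluster 2, against 19.8, 104, 10.7, 92.9, 124 and 10.5 in clusters 1, 3, 4, 5, 6 and 7 in turn. Skeletal actin, Acta1, the most abundant, was at 77.7 in cluster 2, against 3.92, 30.3, 1.01, 33.0, 44.0 and 1.98 in clusters 1, 3, 4, 5, 6 and 7 in turn. The defining factor of muscle precursors, Pax7, had 0 counts in cluster 2 and Myod1 had 2. Sln and Myoz1, both among the genes furthest above the other clusters, are muscle genes, and the part of muscle RNA in these values was not tested.

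Of 18 keratinocyte and epithelial genes, 5 had 50 or more counts in cluster 2, and 8 had them in at least 1 library. Of the 5, 3 (Calml3, Sfn and Epcam) were over 2-fold above the median. Calml3 had itself been given as a mark of cluster 2, and the minimum was set in cluster 2. This count and the median difference of the 5 are therefore a description only. Sfn, an epithelial 14-3-3 protein, was at an RPKM of 123 in cluster 2, 62.4 in cluster 6, 18.8 in cluster 4 and 4.04 to 9.44 in the others, and Epcam was at 6.47 against 3.96 in cluster 6. The summed RPKM of the list was 158 in cluster 2 and 79.2 in cluster 6. Of the listed keratins that define the epidermis, Krt5 had 3 counts, Krt1 had 8 and Krt14 had 25, and Cldn4 had 0. Outside the list and picked after their values were seen, the keratins Krt16 and Krt6a were over 2-fold above every other cluster, Krt16 at 82.2 against 39.4 in cluster 6 and Krt6a at 1.76 (90 counts) against 0.371 in cluster 4. With TMM factors both margins, 0.53 and 0.84, were under 2-fold. Of the Schwann cell list, 5 genes had 50 or more counts and 2 (S100b and Sox10) were above. A part of these cells in the values was not tested.

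Blood cell genes were present in cluster 2 but mostly not above the other clusters. The counts in these short lists are to be read against the 7.52% above and 3.26% below of all genes, and most lie near those shares. Ptprc, which encodes CD45, the surface protein of white blood cells, was at an RPKM of 2.88, and none of 15 haematopoietic surface and signalling genes was over 2-fold from the median. The neutrophil granule genes S100a9 and S100a8 were among the most abundant in cluster 2, at 7765 and 5774, but none of the 17 genes of that list was over 2-fold above the median and 2 (Ltf and Mmp9) were over 2-fold below. Haemoglobin genes took 1.13% of the counts in cluster 2, within the range of 0.122% in cluster 6 to 7.996% in cluster 5, and 2 of 15 erythroid genes (Hbb-b1 and Hbb-b2, nearly identical copies) were over 2-fold above the median. Of 19 B cell genes 1 (Vpreb3) was over 2-fold above. Of 17 endothelial genes 1 was below, of 14 macrophage and osteoclast genes 1 was below, of 12 pericyte and smooth muscle genes 1 was above, and of 9 adipocyte genes 1 was below. In the NK cell list 1 of 2 genes (Gzma) was above, and in the list of megakaryocytes and mast cells 2 of 7 (Gp1bb and Mcpt8). Of 25 cell cycle genes, 2 (Birc5 and Ube2c) were above, and of 24 immediate early genes 1 (Nr4a1) was below.

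The genes of the sort markers followed the gate of cluster 2 in part. Of 10 genes, 1 (Cd24a) was over 2-fold above the median and 4 (Icam1, Ly6a, Ly6c1 and Pdgfra) were below. Pdgfra and Ly6a encode PDGFR-α and Sca-1, the antigens for which the study's single-cell fraction was positive. Ly6c1, which encodes a Ly-6C protein, was at an RPKM of 36.7 in cluster 2 against 417 in the Ly-6C-positive cluster 3, whereas Ly6c2, which also encodes a Ly-6C protein, was at 56.9 in cluster 2 and 37.4 in cluster 3. Entpd1 (CD39) was at 3.46 against 8.72 in the CD39-positive cluster 1. Cd24a went against it. In the CD24-negative cluster 2 it was at 140.5, beside 139 in cluster 6 and 50.7 in cluster 3, both sorted as CD24-positive. It was at 56.7, 53.6, 120.4 and 72.4 in clusters 1, 4, 5 and 7 in turn. The ratio of clusters 2 and 6 was 1.01 (0.983 to 1.04), so the transcript did not separate the CD24-negative from the CD24-positive gate. Whether the library labels and the gates shown for the clusters match was not tested. Ly6a (Sca-1) was at 87.4 in cluster 2 and 5.05 in the Sca-1-negative cluster 6.

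Across 12917 genes, the correlation of cluster 2 was highest with cluster 6 (Pearson r of log2 values 0.912), then clusters 4 (0.897), 3 (0.891), 1 (0.889), 5 (0.887) and 7 (0.854). The points are genes of 2 libraries each and are not independent. The number of genes that differed over 2-fold gave another order, with 1945 against cluster 1, 2000 against cluster 5, 2077 against cluster 3, 2228 against cluster 4, 2576 against cluster 6 and 3068 against cluster 7. Of 10867 genes compared with cluster 6, 2298 were over 2-fold higher in cluster 2 and 278 lower. Cluster 6 held 10.6% of its counts in Col1a1 alone, and TMM factors moved cluster 6 by 0.37 and cluster 2 by -0.14 on the log2 scale.

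Gene length moved with the upward differences. The genes were divided by length into 5 groups of nearly equal size. In the group with lengths of 51 to 2089 bases the median difference from the other clusters was 0.49, in the next (2090 to 3343 bases) it was 0.09, and in the 3 groups of longer genes it was -0.01 to 0.02. Of the 153 genes above every other cluster, 106 lay in the shortest group, 25 in the next, and 11, 5 and 6 in the others, and their median length was 1373 bases against 4032 for all genes. Over these same genes, which were kept by their counts in cluster 2, cluster 6 showed the opposite, with -0.50 in the shortest group and -0.17 in the longest. Both are scaled to the library totals. Ribosomal protein genes, which are short, took 2.88% of counts in cluster 2 and 0.812% to 1.94% in the others. Within the chondrocyte list, the difference from cluster 6 was 1.996 for Snorc (722 bases) and 1.89 for Ucma (884 bases), against -0.15 for Col2a1 (6001 bases) and -0.14 for Acan (7469 bases), while Sox6 (14832 bases) was 0.97 above it and Chad (1680 bases) 1.155 below it. Of the 23 genes, 3 of 5 in the shortest group and 13 of 18 in the longer groups were above cluster 6 when scaled to the library totals. With either TMM or DESeq2 factors 8 of the 23 were above it. These were Snorc and Ucma of the shortest group and Col9a2, Col10a1, Ihh, Matn4, Sox5 and Sox6 of the longer groups. The part of length in the differences, those of the cartilage genes included, was not tested.

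**Figure D5:**
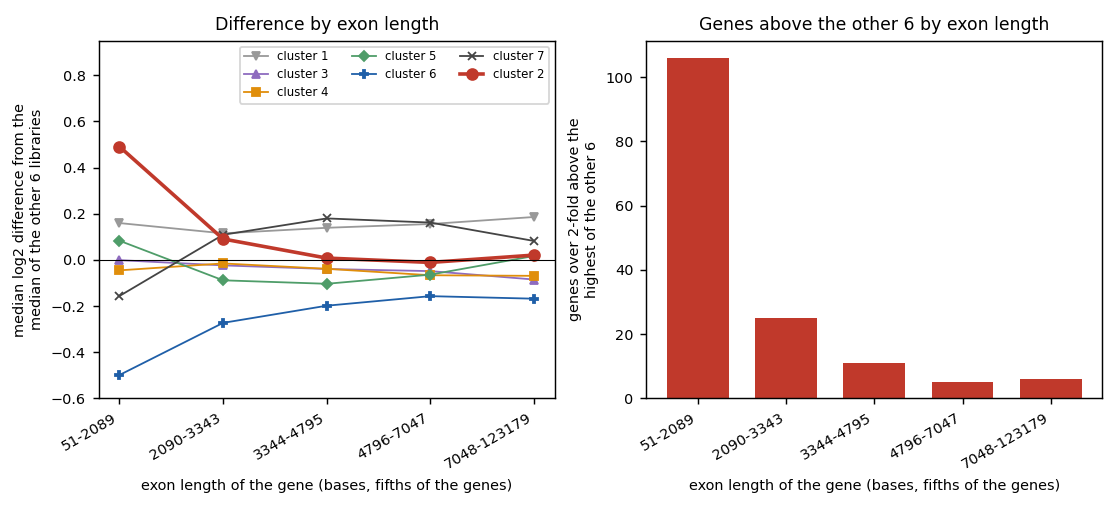
The left panel gives the median log2 difference of each cluster from the other 6 over 5 groups of genes by length, shortest first, with cluster 2 at 0.49 and cluster 6 at -0.50 in the shortest group. All curves are over the genes kept by their counts in cluster 2. The right panel gives as bars how many of the 153 genes over 2-fold above every other cluster fall in each group, 106 of them in the shortest.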

How the data were processed

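RNA-seq libraries of 7 sorted bone marrow populations (1 each) and 1 of input cells were used, the last left out of the comparisons. The authors deposited whole-number counts per gene with positions and lengths. Per the study's methods and the submitters' processing notes, bases under Phred 20 were trimmed, reads under 25 bases removed, and TopHat2 with mm9 and Partek 2.2 used. The counting tool, strand setting and treatment of multiply mapped reads are not given in the sources used here. The positions are those of GRCm38, not mm9: 96.2% of 23289 symbols start within 10 kb of the RefSeq GRCm38.p6 start. The labels describe RNA from crushed marrow, while titles and the study name sorted clusters. Of 49315 genes, 32464 got a symbol from the name table, 2659 were renamed by a RefSeq synonym, and 5992 were named by position (within 1000 bases). Trdc, Tcrg-C1, Hbb-bs, Hbb-bt, Ahsp and Ly76 were not matched.

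After the Rn18s-rs5 locus, Lars2 and mmu-mir-689-2 were dropped, RPKM were computed here from counts, lengths and the remaining totals, with a pseudocount of 1, a minimum of 50 counts and a threshold of 2-fold. With 1 library a group no test was run. Ratio intervals are exact binomial and shares Wilson, at 95%. The calculation was checked on simulated data. Named genes are the 3 marker genes, the 15 furthest above the highest and below the lowest of the other libraries, the 10 furthest from the median each way, the 10 most abundant, 10 under 50 counts, T cell receptor delta and gamma genes with 10 or more counts, all of the osteogenic, bone matrix and sort marker lists, and up to 4 of each other list with, for other cell types, the most abundant gene and those at 0. Members of the chondrocyte list beyond these, and other genes, were added after their values were seen. The genes and the 32 lists were chosen with earlier results of these data known. Alternatives were TMM (edgeR 4.0.16) and DESeq2 1.42.0 scaling factors, the 3 loci kept, a pseudocount of 0.1, other count minimums, a threshold of 4-fold, mitochondrial, haemoglobin and receptor segment genes removed, and each other cluster left out. R 4.3.3 and Python 3.11.15 were used with scipy 1.17.1, pandas 2.3.3, numpy 2.4.6 and matplotlib 3.10.9. Promoters are from RefSeq. Single-cell and chromatin data of the study were not analysed here. Some items are not reported here.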

Additional observations from a re-analysis of the deposited data

Results flagged for a closer look

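Signals outside the comparisons were looked up in the dropped loci and in the input library. The Rn18s-rs5 locus, Lars2 and mmu-mir-689-2 took 10.4% of all counts in cluster 2, above the 0.188% of the input library. Col2a1 had an RPKM of 75.9 in the input library, which entered no comparison, against 9608 in cluster 2. Calml3 had 1 count in the input library, against 467 in cluster 2.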

How the results depend on the processing

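With 1 library each, the spread between animals or sorts is unknown, and low counts limit genes such as Trdj1 and Sln. No paired analysis was possible because there were no replicate libraries. Of 2609 recomputed values, 1635 moved by less than their counting interval or count rule, 968 moved more, and in 6 a difference that had been past 2-fold changed sign: Bglap (-1.14) and Ifitm5 (-0.76), each without cluster 1, 4 or 7, whereas without cluster 3 they were 3.68 and 2.81 above the median. Genes over 2-fold above the highest (153) numbered 65 with TMM factors and 70 with DESeq2 size factors. With the 3 loci kept there were 127, and 115 of these were among the 153. The count was 293 with a pseudocount of 0.1, 5 at 4-fold, and 153 to 335 with 1 cluster left out, the most without cluster 6 and 230 without cluster 5. Genes over 2-fold below the lowest (4) numbered 10 with TMM factors, 11 with DESeq2 size factors, 2 with the 3 loci kept, 18 with a pseudocount of 0.1, 6 without mitochondrial, haemoglobin and receptor segment genes, 0 at 4-fold, and 4 to 77 with 1 cluster left out, 77 without cluster 6. Genes over 2-fold above and below the median (985 and 427) numbered 1549 and 675 with a pseudocount of 0.1. Osteogenic transcription factors above the median (2) numbered 0 with TMM or DESeq2 factors, 1 without mitochondrial, haemoglobin and receptor segment genes, and 0 to 2 with 1 cluster left out. Bone matrix genes below the median (3) numbered 3 to 8, and chondrocyte genes below it (0) 0 to 1 with 1 cluster left out and 1 with TMM factors. TMM factors moved the median of all genes from 0.09 to -0.02. Trdj1 was 3.01 to 3.50 and Calml3 2.13 to 3.01 above the highest under every alternative that kept the gene. Trdj1, a receptor segment with 177 counts, was not kept without receptor segment genes or at a minimum of 200 counts. The cause of these shifts was not tested.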
